A study of Arabidopsis thaliana with 6 samples.

Results

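The plastid-encoded genes of Arabidopsis were followed in unopened flower buds of plants under drought. A gene was taken when the platform annotation gave a probe set to that gene alone and the gene lay on the plastid chromosome, and the brightest probe set stood for the gene. This gave 69 genes, each with 1 probe set, among the 13356 genes measured in the series. RNA was hybridised to 6 single-colour Affymetrix arrays, 2 for each of day 3, day 4 and day 5 of the treatment. All plants carried anac019-1 (SALK_096295), a Col-0 line with a T-DNA inserted in ANAC019, which encodes a NAC transcription factor. All had been watered for 24 days, to the start of bolting, and then went without water until soil moisture had dropped near 35% of capacity. That point came after about 80 hours and was counted as day 3, and the moisture was held from then on. Plants were 28 days old on day 3, 29 on day 4 and 30 on day 5, so age and time under drought cannot be told apart. Wild-type buds, well-watered buds and other alleles were not analysed here. ANAC019 has no named probe set, so the mutation was not checked. The labels do not say whether the replicates came from separate pots, and p-values then measure only the spread between these arrays, which may be technical.

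Plastids keep a small chromosome of their own. It encodes core subunits of both photosystems, of the cytochrome b6f complex, of the ATP synthase and of the NDH complex, together with the large subunit of Rubisco, part of the plastid ribosome and the core of the plastid RNA polymerase. The other subunits of these complexes come from the nucleus. The plastid-encoded polymerase needs nuclear sigma factors to find promoters, while a nuclear-encoded phage-type polymerase also reads plastid genes, the rpo genes among them. Many plastid genes are transcribed together in long units that are then cut, spliced, edited and trimmed. Plastid transcripts mostly lack stable poly(A) tails, and in plastids such tails mark RNA for decay. The labels do not say how the labelled target was primed. Flower buds hold green sepals and young carpels, whose plastids are chloroplasts, beside petals, stamens and pollen, whose plastids are mostly of other kinds.

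The 69 genes comprised 15 of photosystem II, 15 of ribosomal proteins, 10 of the NDH complex, 6 each of the ATP synthase and the cytochrome b6f complex, 5 of photosystem I, 4 of the RNA polymerase, 2 of photosystem I assembly (ycf3 and ycf4), the Rubisco gene rbcL and 5 others (matK, clpP, accD, ccsA and cemA). The psbN gene, counted with photosystem II, encodes an assembly factor. A further 7 genes of the plastid chromosome lie in a repeated region, and their probe sets are annotated to both copies. Mean levels ran from 5.26 to 13.65 on the log2 scale, so all 69 lay above a floor of 5. Probe sets differ in how brightly they respond, and levels were not compared between genes.

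The values are log2 probe set summaries, and the distributions of the arrays were made alike by the authors' processing, so a change is one against the rest of the transcriptome. Array medians over all probe sets lay between 6.97 and 7.03. Day 3 replicate 1 stood apart from the rest in its actin, GAPDH and ubiquitin controls. Their 3′ probe sets exceeded the 5′ ones by a mean of 2.23, against 1.61 to 1.81 in the other 5 arrays. Its hybridisation controls averaged 9.33, against 8.84 to 9.21, and day 5 replicate 1 was close to it at 9.21. For 25S ribosomal RNA the probe set gave 11.79 and 11.45 on day 3, 12.23 and 11.55 on day 4, and 13.11 and 12.82 on day 5. None of 10 listed floral identity genes was measured under a symbol that the gene table holds. Bud contents were seen only through 8 late pollen genes, whose mean log2 level was 6.17 and 6.46 on day 3, 6.51 and 6.51 on day 4, and 7.20 and 7.59 on day 5, and through 2 tapetum genes, which averaged 9.82 and 9.79, 9.80 and 9.89, and 9.02 and 8.25 on the same days. None of these values was near the bottom of the scale, the lowest being 5.43. Their part in the plastid results was not tested.

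Plastid genes varied between replicates far more than other genes did, and the gap was widest on day 3. Their median over the 69 genes was 9.75 and 8.65 on the 2 arrays of day 3, 9.33 and 8.75 on day 4, and 9.11 and 8.63 on day 5, with replicate 1 first each time. The day 3 replicate 1 array was thus the highest of the 6, and replicate 1 was the higher array on every day. Replicate 1 exceeded replicate 2 by more than 1 log2 unit on day 3 in 28 of the 69 genes (40.6%), against 77 of all 22746 probe sets tested (0.339%). Plastid genes made up 36.4% of those 77. On day 4 the count was 5 of 69 plastid genes (0.0528% of all probe sets), and on day 5 it was 2 (0.101%). In 40 of the 69, replicate 1 was above replicate 2 on all 3 days, against 17.5% of all probe sets. The median SD between replicates was 0.57, 0.22 and 0.17 for plastid genes on days 3, 4 and 5, against 0.11, 0.08 and 0.10 for all probe sets.

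The spread went with the level of the probe set. Of 40 plastid genes with a mean under 10, 27 had replicate 1 more than 1 unit above replicate 2 on day 3, while 1 of 29 with a mean of 10 or more did. Across the 69 genes, the mean level and the size of the mean difference between replicates had a Pearson correlation of -0.54, a description over genes that share the same 6 arrays. The widest gap belonged to petD, which encodes subunit IV of the cytochrome b6f complex, at 9.09 in replicate 1 and 6.40 in replicate 2 on day 3. Its arrays came closer on day 4, at 7.96 and 6.83, and on day 5, at 7.29 and 7.25. Some genes went the other way on day 3, with psbK at 10.30 in replicate 1 and 11.36 in replicate 2. Brighter probe sets such as atpE, with 13.76 and 13.74 on day 3, were close to equal.

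**Figure D1:**
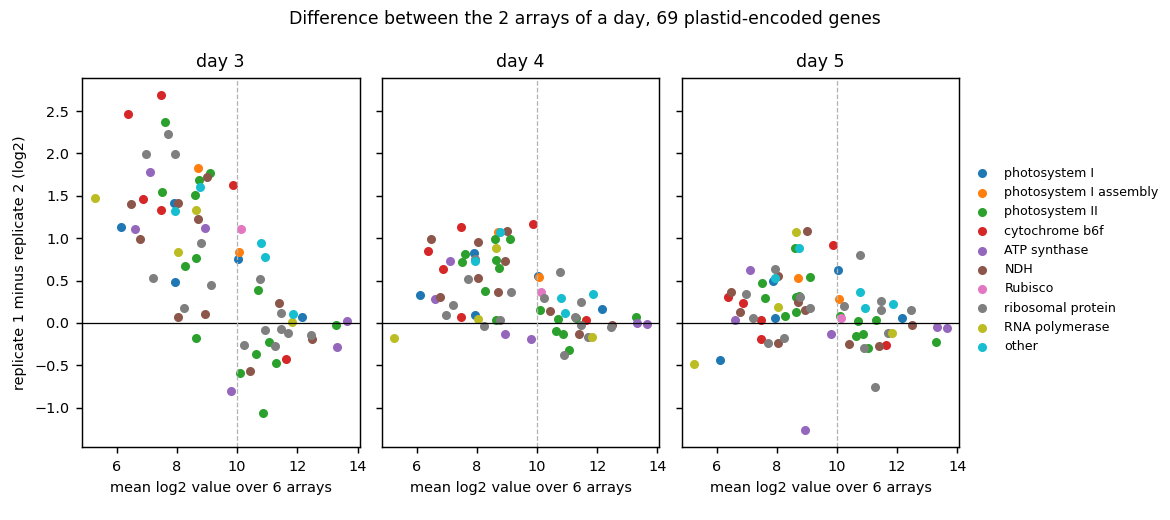
Replicate 1 minus replicate 2 (log2, y axis) for the 69 plastid-encoded genes against their mean log2 value over 6 arrays (x axis), for days 3, 4 and 5, coloured by class, with the dashed line at a mean of 10. On day 3, 28 genes lie above 1, 27 of them with a mean under 10, and on days 4 and 5 the counts above 1 are 5 and 2.

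Between day 3 and day 5, 11 plastid genes fell and none rose, while between days 3 and 4 none passed the test. The genes that fell encode ribosomal proteins (rps2, rps16, rps19, rpl33 and rpl36), NDH subunits (ndhJ and ndhK), a small subunit of each photosystem (psaJ and psbZ), the large subunit of Rubisco (rbcL) and a subunit of the RNA polymerase (rpoC2). Changes of these 11 ran from -0.38 (rps19) to -1.18 (rbcL) on the log2 scale. In whole buds, fewer cells of a type and less RNA per cell cannot be told apart.

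By comparison, the 11 of 69 (15.9%) that fell between day 3 and day 5 stand beside 15.9% of all 22746 probe sets that fell in that comparison, 12.9% that rose, and 28.8% that passed in either direction. In this fit, which leaves out the replicate number, the share that fell was thus that of the array as a whole, and none rose. Plastid genes spread more between replicates than other probe sets did, so equal shares do not mean equal changes. When the replicate number was added to the model, 21 of the 69 fell (30.4%), beside 4027 of all 22746 probe sets. The labels do not show that arrays of 1 number belong together. For day 5 against day 4, 2 plastid genes fell (rps2 and rpl36) and none rose, or 2.90%, against 22.1% of all probe sets in either direction, 11.6% that fell and 10.4% that rose. For day 4 against day 3, 0 of 69 passed by limma with Benjamini-Hochberg adjustment, 1 had an unadjusted p under 0.05, and 0.501% of all probe sets passed (0.233% lower and 0.268% higher). A moderated F test over the 3 days called 7 plastid genes, and 25.1% of all probe sets. No plastid gene passed a test of whether its 2 daily steps differed, and 1.93% of all probe sets did. For day 5 against day 3, 17 plastid genes had an unadjusted p under 0.05, against 39.4% of all probe sets.

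Means alone gave a wider tilt. The mean of day 5 was below that of day 3 in 59 of 69 plastid genes (85.5%), against 56.3% of all probe sets, and the median change was -0.38, against -0.04 over all. Daily medians were -0.16 for day 4 against day 3 and -0.17 for day 5 against day 4, beside -0.00 and -0.04 over all probe sets. Both day 5 arrays lay below both day 3 arrays in 24 genes (34.8%, background 35.3%), and above them in 1, psbM (1.45%, background 26.3%). Both day 5 arrays lay below both day 4 arrays in 27 (39.1%, background 37%) and above in 7 (10.1%, background 26.9%). Both day 4 arrays lay below both day 3 arrays in 9 (13%, background 21.2%) and above in none (background 17.8%).

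These medians rested in large part on day 3 replicate 1. Without it, the median of day 5 against day 3 was -0.10, with 38 of 69 genes lower (55.1%) and 31 higher. Over all probe sets 54.7% were lower. The median of day 4 against day 3 turned to 0.10. These values set day 3 replicate 2 alone against both replicates of a later day, and replicate 1 had the higher plastid median on every day. Within replicate 2 alone, the medians were -0.12 for day 5 against day 3 and -0.05 for day 4 against day 3. Within replicate 1 they were -0.72 and -0.405. The limma fit with the lone day 3 array called 8 genes for day 5 against day 3, where 23.2% of all probe sets passed. Of those, rps2, rps16, rpl36 and psaJ were among the 11, while atpA, petB and psbK were called as lower and psbT as higher. Without day 3 replicate 2 the same count was 29, all lower, where 23.6% of all probe sets passed. Among the 40 genes with a mean under 10 the median change of day 5 against day 3 was -0.50 with both day 3 arrays and 0.33 without replicate 1. Among the 29 with a mean of 10 or more it was -0.26 with both and -0.23 without.

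**Figure D2:**
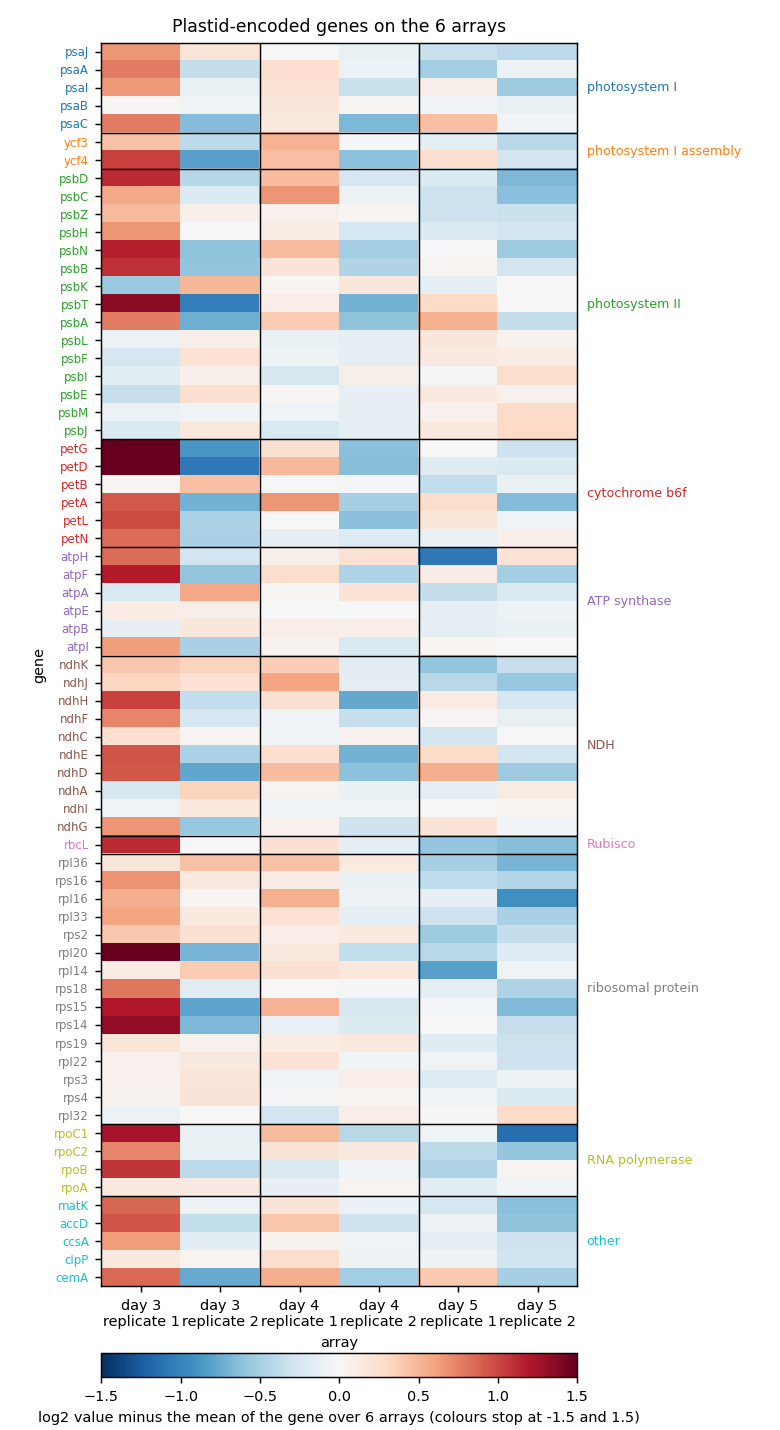
Log2 value of each of the 69 plastid-encoded genes (rows, grouped by class) on the 6 arrays (columns, day 3 to day 5), minus the mean of the gene over the arrays, with colours that stop at -1.5 and 1.5. The first column, day 3 replicate 1, holds most of the deep red, and the day 5 columns are blue in most ribosomal protein and RNA polymerase genes.

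Ribosomal protein genes held 5 of the 11 falls. The plastid ribosome is of the bacterial type, and the chromosome encodes part of both of its subunits. Of the 15 genes measured, 5 fell between day 3 and day 5 (background 15.9%), none rose, and the median change was -0.62. Array medians over the 15 were 10.42 and 10.68 on day 3, 10.63 and 10.38 on day 4, and 9.74 and 9.54 on day 5. On every array but day 4 replicate 1 this median was the value of rpl36 itself, so it describes that gene more than the class. In 10 of the 15, both day 5 arrays lay below both day 3 arrays (background 35.3%). Without day 3 replicate 1 the median was -0.32, with 11 of 15 lower.

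The rpl36 gene (ArthCp057), for a small protein of the large subunit, stood at 10.42 and 10.68 on day 3, 10.68 and 10.38 on day 4, and 9.74 and 9.54 on day 5. Days 3 and 4 overlapped and both day 5 arrays lay below them. The fall was 1.88-fold for day 5 against day 3 (-0.91 ± 0.15, SE; limma adjusted p = 0.00404) and 1.85-fold for day 5 against day 4 (-0.89 ± 0.15; limma adjusted p = 0.0069). The small-subunit gene rps2 (ArthCp011) had 8.64 and 8.46 on day 3, 8.34 and 8.38 on day 4, and 7.70 and 7.88 on day 5. Here too both day 5 arrays were below the other 4. It fell 1.70-fold for day 5 against day 3 (-0.76 ± 0.12, SE; limma adjusted p = 0.00343) and 1.48-fold for day 5 against day 4 (-0.57 ± 0.12; limma adjusted p = 0.0162). With any 1 array left out, the falls of rpl36 and rps2 between day 3 and day 5 still passed, with changes of -1.04 to -0.78 for rpl36 and -0.85 to -0.67 for rps2. Their day 5 against day 4 calls did not always hold: limma adjusted p for rps2 was 0.0852 when day 4 replicate 1 was left out, 0.111 when day 4 replicate 2 was, and 0.0738 when day 5 replicate 1 was. For rpl36 the limma adjusted p was 0.0569 without day 4 replicate 1, and 0.0507 when the left-out array was day 5 replicate 2.

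In rps16, another small-subunit gene, the arrays read 7.86 and 7.34 on day 3, 7.30 and 7.09 on day 4, and 6.81 and 6.75 on day 5. The 3 days did not overlap. The change between day 3 and day 5 was -0.82 ± 0.18 (SE; limma adjusted p = 0.0122, and 0.0665 without day 5 replicate 2). The large-subunit gene rpl33 had 9.71 and 9.26, 9.33 and 8.97, and 8.81 and 8.63 on the same days, with day 5 below the other 4 arrays. It fell by 0.77 ± 0.19 (limma adjusted p = 0.0182), which became 0.086 without day 3 replicate 1, and 0.102 when day 5 replicate 2 was left out. The small-subunit gene rps19 moved least of the 11. It read 11.65 and 11.53 on day 3, 11.58 and 11.61 on day 4, and 11.28 and 11.14 on day 5, and its change of -0.38 ± 0.12 (limma adjusted p = 0.0429) did not pass when any 1 of the 6 arrays was left out (0.0611 to 0.196). That call was also lost with array weights, with cyclic loess, when arrays were centred on their medians and in the fit of the 4 arrays of days 3 and 5.

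The other 10 ribosomal protein genes did not pass. Their changes between day 3 and day 5 ran from -0.81 ± 0.30 in rpl16 to 0.18 ± 0.16 in rpl32, the class's 1 positive value. The rpl14 gene was at 10.44 and 11.19 on day 5 against 11.36 and 11.64 on day 3 (-0.69 ± 0.23; limma adjusted p = 0.06). Both of these large-subunit genes lie in the transcription unit of rpl36.

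All 4 RNA polymerase genes had a lower mean on day 5 than on day 3 (background 56.3%), and 1 of them passed (background 15.9%). The rpoA, rpoB, rpoC1 and rpoC2 genes encode the core subunits of the plastid-encoded polymerase. Their median change between day 3 and day 5 was -0.67, against -0.04 over all probe sets, and -0.30 without day 3 replicate 1. The rpoC2 gene stood at 8.77 and 7.93 on day 3, 8.23 and 8.18 on day 4, and 7.64 and 7.46 on day 5, and its day 5 arrays were below the rest. It fell 1.74-fold (-0.80 ± 0.24, SE; limma adjusted p = 0.0434), with an adjusted p of 0.00374 without day 3 replicate 2 and of 0.0748 to 0.185 without any 1 of the other 5 arrays. The rpoC2 call was also lost with cyclic loess, with centring on the array median and in a fit of the 4 arrays of days 3 and 5. The rpoC1 gene read 9.87 and 8.53, 9.11 and 8.22, and 8.57 and 7.49, a change of -1.17 ± 0.50 that did not pass (limma adjusted p = 0.127). In rpoC1 replicate 1 was the higher array on each day, and day 5 overlapped day 3. Within each replicate number rpoC1 was lower at both daily steps, with day 5 minus day 3 at -1.30 in replicate 1 and -1.04 in replicate 2. The dim rpoB probe set read 6.33 and 4.86, 5.04 and 5.22, and 4.81 and 5.30 (-0.54 ± 0.41), and its value turned to 0.20 without day 3 replicate 1. The bright rpoA probe set read 11.96 and 11.95, 11.69 and 11.85, and 11.66 and 11.78, a small change of -0.23 ± 0.12.

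The Rubisco gene rbcL fell between day 3 and day 5, with day 3 split between its arrays. Rubisco fixes carbon dioxide, and rbcL encodes its large, catalytic subunit. Its arrays read 11.25 and 10.14 on day 3, 10.36 and 10.00 on day 4, and 9.55 and 9.50 on day 5, so day 5 lay below the other 4 arrays. The mean was 9.52 ± 0.04 on day 5, against 10.70 ± 0.79 on day 3 (SD, n = 2 arrays each). The fall was 2.26-fold (-1.18 ± 0.32, SE; limma adjusted p = 0.0275). Without day 3 replicate 1 the change was -0.62 with an adjusted p of 0.0526, and the call was also lost without day 5 replicate 1 (0.0863) or day 5 replicate 2 (0.114), and with a trended and robust prior. Without day 3 replicate 2 the change was -1.73.

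In photosystem I, 1 of 5 genes fell between day 3 and day 5 (background 15.9%). The median change was -0.49, or -0.02 without day 3 replicate 1. The psaJ gene, for a small membrane subunit, stood at 8.61 and 8.13 on day 3, 7.93 and 7.84 on day 4, and 7.61 and 7.55 on day 5. The days did not overlap, and it was the 1 gene with an unadjusted p under 0.05 for day 4 against day 3 (-0.48; limma adjusted p = 0.389). Between day 3 and day 5 it fell 1.73-fold (-0.79 ± 0.17, SE; limma adjusted p = 0.00993, and 0.0571 without day 5 replicate 2). The reaction centre genes gave -0.50 ± 0.34 for psaA and -0.06 ± 0.12 for psaB. The psaA arrays read 6.90 and 5.77, 6.38 and 6.04, and 5.61 and 6.05 on days 3, 4 and 5, and the day 5 against day 3 value became 0.06 without day 3 replicate 1. The bright psaB probe set stayed within 12.06 and 12.34 on all 6 arrays. The small-subunit gene psaI read 10.68 and 9.92, 10.25 and 9.70, and 10.12 and 9.50, with replicate 1 the higher on each day (-0.49 ± 0.31). For psaC, which carries iron-sulfur clusters on the stromal side, the change was 0.15 ± 0.45. The assembly gene ycf3 read 10.51 and 9.68 on day 3, 10.60 and 10.05 on day 4, and 9.93 and 9.65 on day 5 (-0.30 ± 0.28). The other assembly gene, ycf4, read 9.72 and 7.88, 9.15 and 8.08, and 8.93 and 8.41 (-0.13 ± 0.57). In both genes day 5 overlapped day 3, and both values were positive without day 3 replicate 1 (0.12 and 0.79).

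Photosystem II showed 1 fall among 15 genes between day 3 and day 5 (background 15.9%). Its median change was -0.02, with 8 means lower and 7 higher on day 5 than on day 3. Its psbZ gene, for a small subunit, had 11.17 and 10.78 on day 3, 10.77 and 10.73 on day 4, and 10.39 and 10.37 on day 5. No day overlapped another, and the change was -0.60 ± 0.15 (SE; limma adjusted p = 0.0188). That call was lost without day 3 replicate 1 (0.0628), day 5 replicate 1 (0.0632) or day 5 replicate 2 (0.0833), and with cyclic loess. The reaction centre gene psbD, for the D2 protein, read 8.62 and 7.08, 7.97 and 7.25, and 7.30 and 6.83 on days 3, 4 and 5 (-0.78 ± 0.46; limma adjusted p = 0.26). The psbC gene, for the CP43 antenna protein, read 9.19 and 8.42, 9.29 and 8.55, and 8.31 and 8.01 (-0.65 ± 0.30; limma adjusted p = 0.157).

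The gene for the D1 protein, psbA, whose product turns over fastest of the photosystem II core in light, read 9.37 and 7.87 on day 3, 8.98 and 7.99 on day 4, and 9.13 and 8.24 on day 5. Replicate 1 was above replicate 2 by 0.89 or more on each day, and the days overlapped throughout. The day 5 against day 3 value of psbA was 0.06 ± 0.52, and it was 0.82 without day 3 replicate 1 and -0.69 when day 3 replicate 2 was left out instead. The small-subunit genes psbJ, psbL, psbM and psbI, with psbE and psbF for cytochrome b559, had positive values of 0.11 to 0.25, none of which passed. The psbM gene read 13.36 and 13.59 on day 5 against 13.21 and 13.24 on day 3, without overlap (0.25 ± 0.12; limma adjusted p = 0.182). The psbJ arrays read 10.42 and 10.79 on day 3, 10.41 and 10.50 on day 4, and 10.78 and 10.94 on day 5. Its day 5 arrays were above those of day 4 and overlapped day 3 (0.25 ± 0.15 for day 5 against day 3; limma adjusted p = 0.264). When arrays were centred on spike-in controls, psbJ was -0.26 and psbA -0.45 for day 5 against day 3. That centring moves all genes of an array alike. As psbJ had the largest positive value of the 69, no plastid gene kept a positive value.

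No gene of the cytochrome b6f complex or of the ATP synthase passed in any comparison between days. The cytochrome b6f complex carries electrons between the photosystems. All 6 of its genes had a lower mean on day 5 than on day 3, with changes of -0.52 to -0.19, but without day 3 replicate 1 their median turned to 0.53, with 1 of 6 lower. That 1 was petB, for cytochrome b6, which read 11.67 and 12.09 on day 3, 11.64 and 11.60 on day 4, and 11.27 and 11.53 on day 5 (-0.48 ± 0.17; limma adjusted p = 0.0671). Without day 3 replicate 1 the petB change was -0.69 (limma adjusted p = 0.0252). The small-subunit gene petL read 7.86 and 6.40, 6.88 and 6.25, and 7.05 and 6.82 on days 3, 4 and 5, and petN read 8.32 and 6.99, 7.36 and 7.28, and 7.37 and 7.56. In both, day 3 replicate 1 was the highest of the 6 arrays, and the day 5 arrays lay between those of day 3. The changes of petL and petN were -0.19 ± 0.42 and -0.19 ± 0.36 with all arrays, and 0.54 and 0.48 without day 3 replicate 1.

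The ATP synthase makes ATP from the proton gradient across the thylakoid. Its 6 genes had a median change of -0.33 for day 5 against day 3, and -0.17 without day 3 replicate 1. The atpB and atpE genes, for subunits of the soluble head of the enzyme, are transcribed together, and their replicates lay close. The atpE arrays read 13.76 and 13.74, 13.64 and 13.66, and 13.52 and 13.58 on days 3, 4 and 5, a small change of -0.20 ± 0.11 (limma adjusted p = 0.207). For atpB the change was -0.14 ± 0.13, with arrays of 13.19 and 13.48 on day 3, 13.41 and 13.41 on day 4, and 13.17 and 13.22 on day 5, and it was 0.00 with cyclic loess. The atpA gene, for the alpha subunit, read 9.57 and 10.37 on day 3, 9.81 and 10.00 on day 4, and 9.44 and 9.57 on day 5 (-0.47 ± 0.24), and passed without day 3 replicate 1 (-0.87; limma adjusted p = 0.0113). In atpH, for the ring subunit, 1 day 5 array was at 7.87 and the other at 9.14, which gave -0.71 ± 0.45.

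The NDH complex feeds electrons back to plastoquinone in cyclic flow around photosystem I. Of its 10 genes, 2 fell between day 3 and day 5 (background 15.9%). The median change of the 10 was -0.26 (0.03 without day 3 replicate 1). The ndhK gene stood at 8.45 and 8.38 on day 3, 8.41 and 7.88 on day 4, and 7.46 and 7.70 on day 5. Day 5 lay below the other 4 arrays. It fell 1.78-fold (-0.83 ± 0.18, SE; limma adjusted p = 0.0125, and 0.0608 without day 3 replicate 1 or 0.0674 without day 5 replicate 1). Its neighbour ndhJ read 9.24 and 9.14, 9.51 and 8.79, and 8.51 and 8.36, again with day 5 lowest. The fall was 1.69-fold (-0.76 ± 0.22; limma adjusted p = 0.036), and it did not pass when any 1 array of day 3 or day 5 was left out (0.0807 to 0.16), with cyclic loess or with array weights. The ndhC gene, which is transcribed with them, read 11.65 and 11.41, 11.33 and 11.45, and 11.11 and 11.39 (-0.28 ± 0.14). The other 7 NDH genes ran from -0.39 in ndhH to 0.03 in ndhG. The ndhF gene, which is transcribed by itself, read 7.51 and 6.53, 6.74 and 6.43, and 6.79 and 6.66 on days 3, 4 and 5 (-0.29 ± 0.29), and 0.20 without day 3 replicate 1.

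Of the 5 other genes none passed. The matK gene encodes a splicing factor for group II introns, and read 11.64 and 10.70 on day 3, 10.98 and 10.68 on day 4, and 10.52 and 10.16 on day 5, with both day 5 arrays lowest (-0.83 ± 0.29; limma adjusted p = 0.0666). The accD gene, for a subunit of the acetyl-CoA carboxylase of fatty acid synthesis, read 8.87 and 7.56, 8.34 and 7.62, and 7.85 and 7.32 (-0.63 ± 0.42), and gave 0.03 without day 3 replicate 1. The protease gene clpP read 12.00 and 11.89, 12.11 and 11.77, and 11.77 and 11.55 (-0.28 ± 0.15). For ccsA, needed for attaching haem to c-type cytochromes, the arrays read 11.56 and 10.77, 10.98 and 10.87, and 10.79 and 10.62 (-0.46 ± 0.23). For cemA, an envelope membrane protein, the change was -0.10 ± 0.55.

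**Figure D3:**
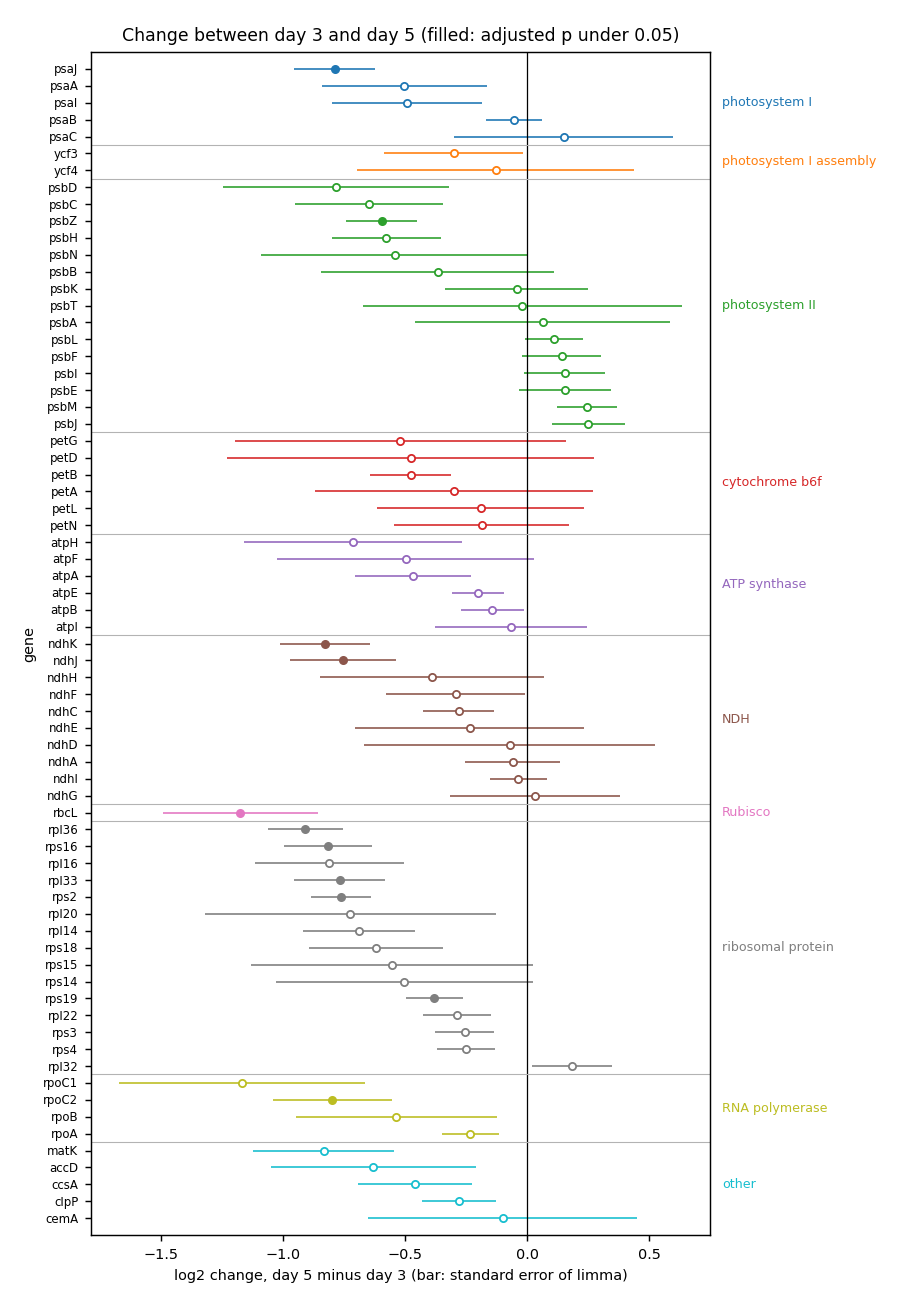
Change of each of the 69 plastid-encoded genes between day 3 and day 5 (day 5 minus day 3, log2, x axis), with bars for the limma standard error and filled points for the 11 with an adjusted p under 0.05, grouped by class. All 11 filled points lie below 0, 5 of them among ribosomal protein genes, and photosystem II genes lie on both sides of 0 on this scale.

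Side by side, the shares of genes that fell between day 3 and day 5 were 5 of 15 for ribosomal proteins, 1 of 4 for the RNA polymerase, 2 of 10 for NDH, 1 of 5 for photosystem I, 1 of 15 for photosystem II, 0 of 6 each for the cytochrome b6f complex and the ATP synthase, and 1 of 1 for Rubisco. Over all probe sets, 15.9% fell in that comparison. The classes were not tested against each other. They hold few genes, share the same 6 arrays and, in several cases, share transcripts.

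**Figure D4:**
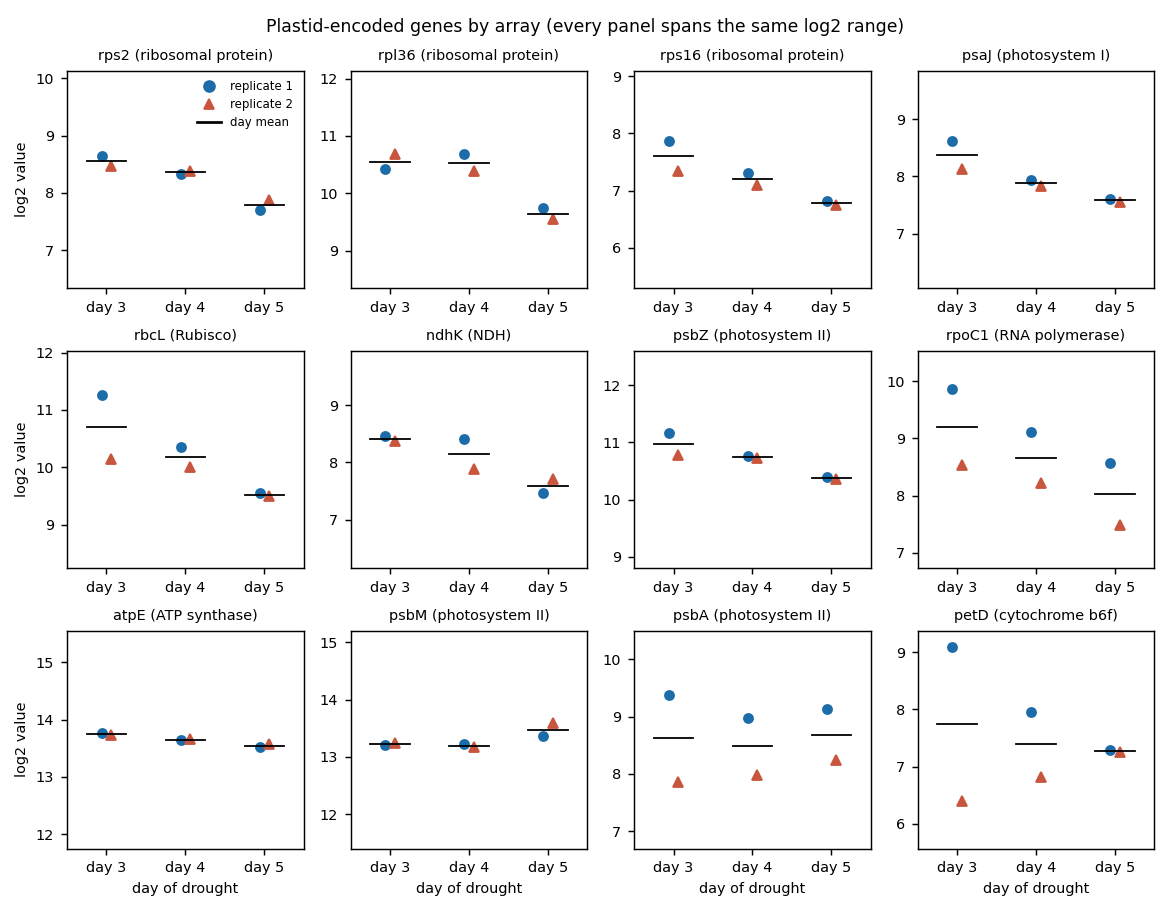
Log2 values of 12 plastid-encoded genes on the 6 arrays (y axis, every panel spanning the same range) for days 3, 4 and 5 (x axis), with circles for replicate 1, triangles for replicate 2 and bars for day means. In rps2 and rpl36 both day 5 arrays lie below the other 4, while psbA and petD show wide gaps between replicates.

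Neighbours on the chromosome were compared through the transcription units that hold them, which were listed from general knowledge of the plastid chromosome and not from these data. The psbD, psbC and psbZ genes gave -0.78 to -0.60, and psbZ passed. All 4 measured genes of the psbE unit (psbE, psbF, psbL and psbJ) gave values of 0.11 to 0.25, with none passing. When arrays were centred on spike-in controls all 4 were below 0, with psbJ at -0.26 and psbL passing as lower. The unit that starts with rpl23 gave -0.91 to -0.23 over 7 genes, with rpl36 and rps19 passing and rpoA, at its end, giving the smallest value. The 3 genes rpoB, rpoC1 and rpoC2 gave -1.17 to -0.54, and ndhC, ndhK and ndhJ gave -0.83 to -0.28.

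In the unit of rps2 and 4 ATP synthase genes (atpI, atpH, atpF and atpA), values ran from -0.76 in rps2 to -0.07 in atpI, with rps2 passing. In the group of petL, petG, psaJ, rpl33 and rps18, they ran from -0.79 in psaJ to -0.19 in petL, with psaJ and rpl33 passing. The ndhD to ndhH unit, which also holds psaC and rps15, gave -0.55 to 0.15, with none of 8 passing. The psbB unit, with psbT, psbH, petB and petD, gave -0.58 to -0.02, with none of 5 passing.

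**Figure D5:**
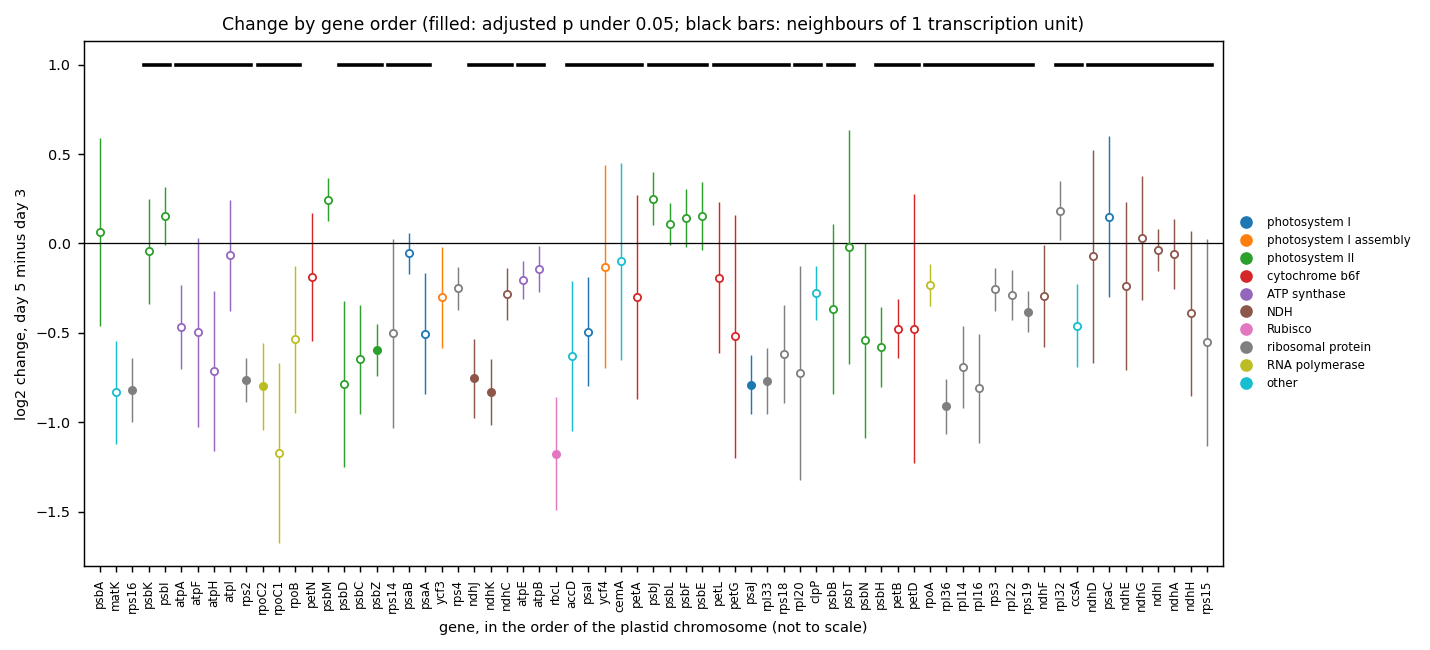
Change between day 3 and day 5 (day 5 minus day 3, log2, y axis, with limma standard errors) of the 69 plastid-encoded genes in the order of the plastid chromosome (x axis, not to scale), coloured by class, filled where the adjusted p was under 0.05. Black bars join neighbours of 1 transcription unit. The psbE to psbJ genes lie above 0 on this scale, but below 0 when centred on spike-in controls (psbJ at -0.26). The psbD to psbZ genes lie between -0.78 and -0.60.

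Nuclear genes of the same machinery were listed by function, and few of them were measured under a symbol that the gene table holds. None of the listed sigma factors, phage-type polymerases, polymerase-associated proteins or plastid RNA processing factors was. Nor was any listed nuclear plastid ribosomal protein, Rubisco small subunit, cytochrome b6f partner or chlorophyll breakdown enzyme. Across all lists, 13 entries with a probe set lacked such a symbol and were left out, so these genes may still have probe sets. Of 13 measured nuclear genes for photosystems, ATP synthase, NDH and chlorophyll synthesis, 7 fell and 1 rose between day 3 and day 5, with a median change of -0.42, where 15.9% of all probe sets fell and 12.9% rose. For day 5 against day 4, 6 fell and 1 rose, where 11.6% of all probe sets fell and 10.4% rose. No member of these lists passed for day 4 against day 3. The falls were 2 of 2 for photosystem I (PSAE-1, -0.42, and PSAN, -0.67), 2 of 5 for photosystem II (PSBY, -0.76, and LHCB4.3, -0.69), 1 of 2 for the ATP synthase (ATPC1, -0.52), 1 of 3 for NDH (NDHN, -0.57) and 1 of 1 for chlorophyll synthesis (PORB, -0.87). The gene that rose was NDHS, for a ferredoxin-binding subunit of NDH (0.82 ± 0.14, SE; limma adjusted p = 0.0044).

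The PORB gene, for an enzyme of chlorophyll synthesis, read 9.99 and 10.22 on day 3, 9.96 and 9.97 on day 4, and 9.32 and 9.16 on day 5, with both day 5 arrays lowest (limma adjusted p = 0.00225 for day 5 against day 3). Over the same interval the late pollen list had 7 of 8 genes rise (background 12.9%), with a median of 0.96, and in the tapetum list SHT fell (-1.89; limma adjusted p = 0.00173) while AMS gave -0.45 (limma adjusted p = 0.136).

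The other organelle chromosome was compared through 11 mitochondrially encoded genes matched by symbol. For day 4 against day 3 the median change was -0.16 in plastid genes and -0.17 in mitochondrial genes. For day 5 against day 4 it was -0.17 in plastid genes and 0.30 in mitochondrial genes, and for day 5 against day 3 it was -0.38 and 0.02 in the same order. In that last comparison 1 of the 11 mitochondrial genes passed as higher (background 12.9%) and 0 as lower (background 15.9%). For day 5 against day 4, 2 of the 11 passed as higher (background 10.4%) and 0 as lower (background 11.6%). Replicate 1 exceeded replicate 2 by more than 1 unit on day 3 in 28 of 69 plastid genes, against 1 of the 11 mitochondrial genes and 27 of 13217 nuclear genes. The difference between the organelles was not tested.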

How the data were processed

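Values are log2 probe set summaries as the authors deposited them. Per the submitters' processing notes, RMA and the R package affy were used, and versions are not given in the sources used here. RMA corrects background, makes the arrays' distributions equal and summarises probes by median polish, so dim probe sets show compressed changes. The number of arrays, 2 per day, limits the precision. Group and replicate came from the sample titles. The table held 22810 probe sets, of which 64 controls were left out. The annotation gave 13513 probe sets 1 gene, 503 several and 8730 none, and names were updated through a RefSeq gene table of assembly TAIR10.1, which was also used for gene order. Coordinates and sequences are not printed.

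Day means were compared in limma 3.58.1 (R 4.3.3) with lmFit and eBayes, all 6 arrays in 1 model (3 residual degrees of freedom, prior 4.69). Tests were two-sided, with Benjamini-Hochberg adjustment over all 22746 probe sets and a threshold of 0.05. The fit was checked on simulated data. Members, classes and gene lists were chosen with earlier results of these data known. Of 187 list entries, 23 were measured under a symbol that the gene table holds, and 13 more without one were left out. Values in every array were given for up to 3 genes of each class with the smallest F-test p and for 13 preset genes, and other genes by range or single values. Alternatives are listed with their effects in the closing section.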

Additional observations from a re-analysis of the deposited data

How the results depend on the processing

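With 2 arrays per day, the depth of this comparison is limited by array number. Leaving out each array in turn gave 4 to 29 plastid genes for day 5 against day 3 (11 with all arrays), 0 to 8 for day 5 against day 4 (2 with all) and 1 to 26 in the F test (7 with all), while day 4 against day 3 stayed at 0. The lowest counts came without day 5 replicate 2 (4), day 4 replicate 1 (0) and day 5 replicate 1 (1), and the highest without day 3 replicate 2 (29 and 26) or without either day 3 array (8). In these fits the lone array of a day is assumed to vary like the other groups. The median of day 4 against day 3 ran from -0.67 to 0.10, turning without day 3 replicate 1. Within replicate 2 alone that median was -0.05, so the turn also holds the difference between the replicates. Leave-one-out ranges were taken only for the genes given in full and those that passed. Among these, the ranges that crossed 0 for day 5 against day 3 were -1.27 to 0.20 (rpoB), -0.85 to 0.48 (petN), -1.07 to 0.0621 (psaA), -0.72 to 0.12 (ycf3), -1.29 to 0.0272 (accD), -1.05 to 0.79 (ycf4), -0.92 to 0.54 (petL), -0.79 to 0.20 (ndhF), -0.69 to 0.82 (psbA) and -0.29 to 0.0028 (atpB). Other genes crossed 0 too: of all 69, 31 were higher without day 3 replicate 1, against 10 with all arrays. For day 5 against day 3, cyclic loess gave 7 genes. For day 5 against day 4, the filter on a mean under 5 gave 4, a trended and robust prior 5, cyclic loess 4 (2 higher, 2 lower), array weights 4 and the 4 arrays of those days 8. With cyclic loess atpB was 0.0037. When arrays were centred on the poly-A controls, whose added amount is not recorded, this moved the median of all probe sets for day 5 against day 3 to -0.56 and gave 54 plastid genes for day 5 against day 3, 38 for day 5 against day 4 and 45 in the F test, where 73.4%, 60.8% and 69.1% of all probe sets passed. The median of plastid genes was then -0.90. Every positive change for day 5 against day 3 turned negative, with psbA at -0.45 and psbJ, the largest before, at -0.26. The causes of these changes were not tested. Medians under the other alternatives moved by less than the pooled spread of 0.54 between replicate medians. That spread is larger than the medians themselves (-0.16, -0.17 and -0.38), so it cannot show that they were stable. With cyclic loess the median was -0.29 for day 5 against day 3 and -0.05 for day 5 against day 4. Each gene had 1 probe set, so averaging probe sets changed nothing.

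With the replicate number as a block, 21 of the 69 plastid genes (30.4%) were called for day 5 against day 3, all lower. They were the 11 of the fit without a block and matK, rpoC1, psbC, psbD, psbH, psaI, petB, accD, rpl14 and rpl16. For day 5 against day 4, 12 were called (11 lower), and in the F test 15. Of all probe sets, 32.2%, 25.6% and 28.7% passed in these tests, in either direction. By direction, 4027 of all 22746 probe sets were called as lower and 3306 as higher for day 5 against day 3. For day 5 against day 4, 3035 were called as lower and 2792 as higher. The correlation of same-numbered arrays' deviations from their day means over all probe sets was 0.0987 for days 3 and 4, 0.14 for days 3 and 5 and 0.38 for days 4 and 5, and over the 69 plastid genes 0.72, 0.45 and 0.73. The first value lies under the limit of 0.1 that was set, and the labels give no shared pot or day, so the numbers were not taken as pairs.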

Other observations

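A further 8 probe sets are annotated to both copies of 7 plastid genes in the repeated region of the chromosome and were not among the 69. Their median change was -0.02 for day 4 against day 3, -0.16 for day 5 against day 4 and -0.23 for day 5 against day 3. Only 1 of the 8 passed for day 5 against day 3, with arrays of 10.38 and 10.07 on day 5 against 11.36 and 11.08 on day 3 (-0.99; limma adjusted p = 0.00298). The same probe set passed for day 5 against day 4 (-0.74; limma adjusted p = 0.0141). In the dimmest of the 8, the arrays read 6.65 and 4.77 on day 3, 5.79 and 5.31 on day 4, and 5.69 and 5.06 on day 5, with replicate 1 above replicate 2 each time.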
